A study of Homo sapiens with 15 samples.

Results

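The RAP1 GTPases and the proteins that switch them on and off were followed in human colon carcinoma xenografts carrying 5 constructs. The set holds 10 genes: the GTPases RAP1A, RAP1B and RAP2A, the exchange factors RAPGEF1, RAPGEF2 and RAPGEF3, and the GTPase-activating proteins RAP1GAP, RAP1GAP2, SIPA1 and SIPA1L1. Every probe of the array whose RefSeq transcript belongs to 1 of these genes was taken, which gave 16 probes of the 34127 on the array, and 10 genes of the 19480 that the array's transcripts name. HCT116 is an established human colorectal cancer cell line. Cells transfected with empty pCDNA3 vector, wild type MOAP-1, the lysine-to-arginine changes K264R or K278R of MOAP-1, or HA-tagged RASSF1A in pCDNA3 were grown as tumors in athymic nude mice, and the study's methods give excision at day 35. Each construct had 3 tumors and each tumor 1 single-color array, so that 15 arrays were compared. All 15 tumors therefore shared the same parental line and its own MOAP-1 and RASSF1A genes, and the host kept its stroma and innate immune cells but lacked T cells. Per the study's text the HCT116 cells carried the constructs by transient transfection, so that not every cell of a tumor need have held its construct. That text gives sustained expression in culture for a shorter time than the tumors grew. Male mice are named there for xenografts of other cell lines, and the age of the mice was not given in the sources used here.

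RAP proteins are small GTPases of the Ras family that control integrin-mediated adhesion and the formation of cell-cell junctions. They are active while bound to GTP. Exchange factors such as RAPGEF1 (recruited by the adapters CRK and CRKL), RAPGEF2 and the cAMP-bound RAPGEF3 (EPAC1) load them with GTP, and GTPase-activating proteins such as RAP1GAP and SIPA1 speed hydrolysis and return them to the inactive form. RAP1GAP is often low in carcinomas, where it is regarded as a brake on RAP1.

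A level is given throughout as the log2 of a probe's background-corrected intensity minus the log2 of the 75th percentile of its array, so that 0 is the 75th percentile, and a change is the difference between the mean levels of 2 constructs, with its standard error (SE). Levels of different probes were not set against each other, because probes differ in brightness. A probe was tested when at least 1 construct had it well above background in each of its 3 tumors, which held for 30570 probes. A change was called when limma's adjusted p over all these probes was under 0.05 and the change was at least 1.5-fold. Of the 16 member probes, 15 were tested, covering all 10 genes. The tested RAP1B probe A_33_P3211604 had no usable spot in RASSF1A tumor 3, and its fit used the other 14 arrays. The probe that was left out, A_23_P151307 of RAPGEF3, was well above background on 1 array, K278R tumor 1.

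The arrays had 75th percentile intensities between 496.3 and 1402, with 85.1% to 93.2% of spots well above background. K278R tumor 2 had the lowest percentile and correlated least with the other tumors of its construct (r of 0.986 and 0.987 over all tested probes), and RASSF1A tumor 3 was closest to a vector tumor (r = 0.993). The arrays lay on 5 slides. The vector tumors and RASSF1A tumor 3 were on slide 4, RASSF1A tumors 1 and 2 on slide 5, which was scanned on another day, the K264R tumors on slide 3, K278R tumors and MOAP-1 tumor 2 on slide 2, and MOAP-1 tumors 1 and 3 on slide 1. No slide held a vector tumor and a tumor of any MOAP-1 construct, so slide and construct cannot be told apart in those comparisons. The MOAP1 probe read 0.34, 0.71 and 0.71 in MOAP-1 tumors and -0.18, -0.53 and -0.13 in vector tumors, a change of 0.87 (limma adjusted p = 0.000841), and was also higher in K264R (0.55, adjusted p = 0.00939) and K278R (0.74, adjusted p = 0.00503). The RASSF1 probe was at 1.56, 1.55 and 1.59 in RASSF1A tumors and at 1.72, 1.52 and 1.81 in vector tumors (change -0.12, adjusted p = 0.671). Whether the MOAP1 probe or the RASSF1 probe reads the transfected construct is not given in the sources used here. Epithelial markers were well above background on 8 of 8 probes. The log2 of their summed signal was 8.11 to 8.30 in vector, 7.86 to 8.06 in MOAP-1 and 7.73 to 7.90 in K264R tumors. It was 7.582 to 8.075 in K278R and 7.89 to 8.09 in RASSF1A tumors, so that no tumor of another construct reached the vector range. KRT8 at A_24_P67395 was called higher in MOAP-1 (1.07, limma adjusted p = 0.0121) and K264R tumors (0.97, adjusted p = 0.0168), and its other probe was not called.

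For orientation, the bases before the annotated start are shown for the 3 GTPases, of which RAP2A had a called change and RAP1A and RAP1B had none. They are RefSeq sequences of GRCh38.p14, on the plus strand, 250 bases each. Capitals mark GC boxes (GGGCGG on either strand, overlapping copies counted separately) and the cAMP response element TGACGTCA.
RAP1A, chr1:111541759-111542008: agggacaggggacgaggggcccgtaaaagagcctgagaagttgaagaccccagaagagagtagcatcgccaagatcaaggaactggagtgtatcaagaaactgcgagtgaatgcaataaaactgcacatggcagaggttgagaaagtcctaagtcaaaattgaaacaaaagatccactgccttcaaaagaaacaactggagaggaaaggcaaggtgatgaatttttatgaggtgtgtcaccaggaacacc
RAP1B, chr12:68610649-68610898: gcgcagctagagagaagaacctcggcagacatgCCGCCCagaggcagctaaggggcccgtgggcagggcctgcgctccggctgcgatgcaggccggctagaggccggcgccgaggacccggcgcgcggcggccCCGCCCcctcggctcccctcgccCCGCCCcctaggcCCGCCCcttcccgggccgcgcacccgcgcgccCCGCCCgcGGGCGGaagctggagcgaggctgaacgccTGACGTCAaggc
RAP2A, chr13:97433919-97434168: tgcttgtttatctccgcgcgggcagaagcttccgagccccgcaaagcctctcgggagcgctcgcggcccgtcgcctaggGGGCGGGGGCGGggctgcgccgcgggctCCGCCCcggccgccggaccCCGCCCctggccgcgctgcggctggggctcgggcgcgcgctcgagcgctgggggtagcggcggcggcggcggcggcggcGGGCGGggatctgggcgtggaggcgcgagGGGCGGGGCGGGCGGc
RAP2A held 8 GC boxes and RAP1B 6, and RAP1A held none, while 42.6% of 34788 promoter windows of the same length held at least 1. RAP1B also held 1 cAMP response element, as did 1.64% of all windows. The GC content was 82.8% for RAP2A, 78.4% for RAP1B and 46.0% for RAP1A, against a median of 58.0% over all windows. The RefSeq table had windows for 9 of the 10 genes, several of them with more than 1 start; RAP1GAP had none.

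Across the 5 constructs, 6 of the 15 member probes differed by limma's F test, beside 43.4% of all tested probes, a share close to that background. They were both RAP1GAP probes, 1 of 2 probes each of RAP1GAP2 and RAPGEF1, and the probes of SIPA1 and SIPA1L1. In MOAP-1 against vector tumors 3 of 15 member probes were called, beside 16.6% of all tested probes: both RAP1GAP probes were lower and 1 RAP1GAP2 probe was higher. In K264R tumors 3 were called (background 19.5%), again both RAP1GAP probes lower, with RAP2A higher, and in K278R tumors 2 (background 10.9%), 1 RAP1GAP probe lower and the same RAP1GAP2 probe higher. These 3 comparisons use the same vector tumors. The median change of the members was 0.14 in MOAP-1, 0.02 in K264R and 0.19 in K278R tumors, and over all tested probes 0.02, -0.05 and 0.06. In RASSF1A against vector tumors limma called none of 15 (background 0%), with 4 of 15 at an unadjusted p under 0.05, beside 12.1% of all tested probes (3692). The methods' t-test called no member there, and 186 of all tested probes without adjustment and 0 with it. The groups of MOAP-1 and vector tumors did not overlap at 7 of 15 member probes, beside 48.6% of all tested probes, those of K264R and vector at 8 (52.8%), of K278R and vector at 5 (37.3%) and of RASSF1A and vector at 4 (14.8%). Under normexp, another background model, on all spots no member was called in any comparison. The RAP1GAP changes there were -1.79 in MOAP-1 (limma adjusted p = 0.205), -1.44 in K264R (adjusted p = 0.360) and -1.51 in K278R tumors (adjusted p = 0.279) at A_24_P36890. At A_23_P45976 the change was -0.91 in MOAP-1 (adjusted p = 0.205) and -0.515 in K264R tumors (adjusted p = 0.645). That setting moved the median of all tested probes to -0.53 in MOAP-1, -0.31 in K264R and -0.46 in K278R tumors. Relative to it, the changes at A_24_P36890 were -1.26 in MOAP-1, -1.13 in K264R and -1.04 in K278R tumors. Those at A_23_P45976 were -0.38 in MOAP-1 and -0.21 in K264R tumors.

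**Figure D1:**
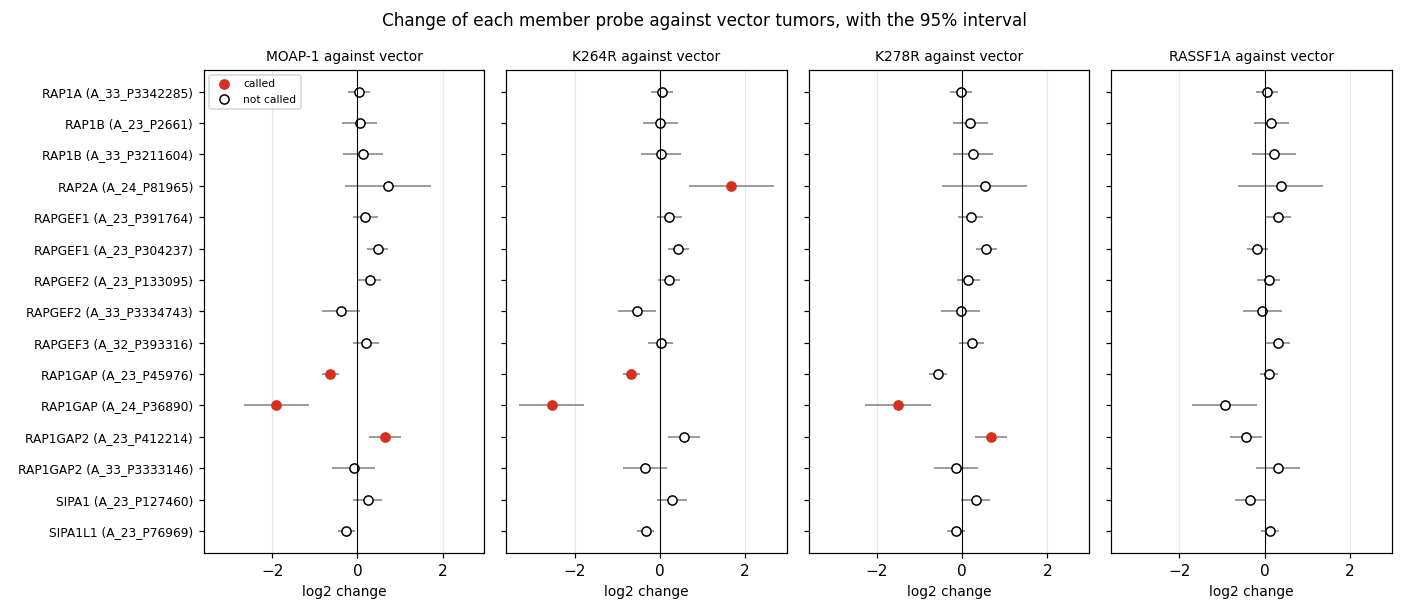
Log2 change of each of the 15 tested member probes against vector tumors, in 1 panel per construct, with the 95% interval from limma (3 tumors a construct); filled points were called. RAP1GAP lies left of 0 at both probes in the MOAP-1, K264R and K278R panels, RAP2A lies farthest right in K264R tumors, and RAP1A and RAP1B lie near 0 in every panel.

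In tumor RNA, fewer cells of a type and less RNA per cell cannot be told apart. Fibroblast marker signal varied between tumors, and 7 of 8 probes were tested. The log2 of the summed signal was 0.95 to 2.76 in vector, 2.40 to 5.35 in MOAP-1 and 2.08 to 4.18 in K264R tumors. It was 3.28 to 5.26 in K278R and 2.85 to 3.39 in RASSF1A tumors. The MOAP-1 and K264R ranges overlapped that of vector, and the sums were not tested. Called higher were 2 probes in MOAP-1, 1 in K278R and 0 in K264R and in RASSF1A tumors. The LUM probe was well above background on 0 arrays. Summed endothelial markers were 1.622 to 1.683 in vector, 1.708 to 1.892 in MOAP-1 and 1.613 to 2.185 in K264R tumors. They were 1.684 to 1.87 in K278R and 1.744 to 1.954 in RASSF1A tumors, so that only K264R tumors overlapped the vector tumors. PECAM1 at A_33_P3405213 read 0.12 in K264R tumor 2 and -3.67 and -3.04 in the other K264R tumors. TIE1 was called higher in MOAP-1 (2.37, limma adjusted p = 0.0190) and K278R tumors (2.31, adjusted p = 0.0304), the one called of 6 tested probes. Summed leukocyte markers were 3.65 to 4.03 in vector, 3.43 to 3.84 in MOAP-1 and 3.99 to 4.38 in RASSF1A tumors. They were lower than in any vector tumor in K264R (3.35 to 3.60) and K278R tumors (3.57 to 3.63). Bright probes weigh most in such a sum, and the 9 leukocyte probes did not move together. TYROBP was called lower in MOAP-1, K264R and K278R tumors (-1.70, -1.65 and -1.34). It read 2.53, 2.95 and 1.83 in vector and 0.51, 1.05 and 0.82 in K264R tumors. PTPRC was called higher at A_33_P3309526 in MOAP-1 (0.72) and K278R tumors (0.69). At A_33_P3364808 PTPRC was at -0.38, -0.47 and -0.32 in MOAP-1, K264R and K278R tumors, short of the fold threshold. CD3E was at 0.28, 0.03 and 0.25 and ITGAM at 0.12, -0.09 and -0.19, not called. The part of these cells in the changes of RAP1GAP, RAP1GAP2, RAP2A, TLN1 and RAP2C was not tested, nor was that of mouse RNA on the human probes.

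The changes called against vector were of RAP1GAP, RAP1GAP2 and RAP2A, in numbers close to the background shares given above. Groups that did not overlap the vector tumors were common over all tested probes, at 48.6% for MOAP-1, 52.8% for K264R and 37.3% for K278R. RAP1GAP, which switches RAP1 off, was lower in all 9 tumors of the MOAP-1 constructs than in any vector tumor at both of its probes. Its probe A_24_P36890 read -1.71, -1.77 and -1.54 in vector tumors 1 to 3, and -3.31, -3.53 and -3.88 in MOAP-1 tumors. It read -4.07, -4.29 and -4.26 in K264R tumors and -3.48, -2.23 and -3.82 in K278R tumors. K278R tumor 2, the array that stood apart, was thus the closest of these 9 to the vector tumors. The fall from vector was 1.90 (SE 0.36) in MOAP-1 tumors, which is 3.73-fold lower with a limma adjusted p of 0.00185 and a 95% interval of the change from -2.67 to -1.13. It was 2.53 (SE 0.36, 5.80-fold lower, adjusted p = 0.000235) in K264R and 1.50 (2.83-fold lower, adjusted p = 0.0124) in K278R tumors. The K278R call was lost without K278R tumor 3, with only the compared arrays, with the adjusted t-test and under normexp on all spots. Of all tested probes, 0.226% fell at least as far in MOAP-1 tumors, 0.190% in K264R and 0.324% in K278R tumors.

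RASSF1A tumors split at this RAP1GAP probe by slide. Tumors 1 and 2 read -3.00 and -2.94 and lay between the vector and the MOAP-1 tumors, and tumor 3 read -1.89. On slide 4, tumor 3 was 0.21 below the mean of the vector tumors beside it, while tumors 1 and 2 on slide 5 were 1.29 below. Over the 3 tumors the change was -0.93 (SE 0.36) and was not called (limma adjusted p = 0.360). Without tumor 3 it was -1.29 and was called (adjusted p = 0.0467). Whether slide or scan day had a part in it was not tested, since 1 array is the whole within-slide comparison.

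The second RAP1GAP probe, A_23_P45976, had the largest F statistic of the members (F = 30.9, adjusted p = 6.08e-05), and 2.36% of tested probes had a larger one. It read -1.73, -1.64 and -1.95 in vector tumors and -1.64, -1.67 and -1.70 in RASSF1A tumors, whose ranges overlapped. MOAP-1 tumors read -2.53, -2.35 and -2.35, K264R tumors -2.40, -2.40 and -2.53, and K278R tumors -2.30, -2.37 and -2.35, so that 9 tumors lay within a narrow band below the other 6. Against vector the change was -0.64 (SE 0.10, limma adjusted p = 0.000509) in MOAP-1 and -0.67 (adjusted p = 0.000253) in K264R tumors. Without vector tumor 2 or without MOAP-1 tumor 1 the change in MOAP-1 tumors was -0.57 or -0.58 and fell short of the fold threshold. The call in MOAP-1 tumors was also lost under both normexp settings. In K278R tumors it was -0.57 (adjusted p = 0.00303), which passed the p threshold at 1.48-fold, short of the fold threshold. The 2 probes of RAP1GAP thus gave the same direction in the 3 MOAP-1 constructs with changes of -2.53 to -1.50 at A_24_P36890 and -0.67 to -0.57 at A_23_P45976, and in RASSF1A tumors they differed in sign (-0.93 and 0.10, neither called).

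RAP1GAP2, a GTPase-activating protein for RAP1 best known from platelets, moved the other way at 1 of its probes. A_23_P412214 read -2.50, -2.79 and -2.25 in vector tumors, -1.82, -1.91 and -1.87 in MOAP-1 tumors and -2.04, -1.85 and -1.98 in K264R tumors. It read -1.60, -2.09 and -1.84 in K278R tumors and -3.21, -3.08 and -2.58 in RASSF1A tumors. The MOAP-1, K264R and K278R tumors all lay above the 3 vector tumors. A larger F statistic than that of this probe was found at 9.40% of tested probes. The change was 0.65 (SE 0.17, 1.57-fold higher, limma adjusted p = 0.0137) in MOAP-1 and 0.67 (adjusted p = 0.0183) in K278R tumors, and 0.56 (1.47-fold, adjusted p = 0.0246, not called) in K264R tumors. The call in MOAP-1 tumors was lost under 5 of 28 alternatives and that in K278R tumors under 8. Both were lost without vector tumor 2, the lowest of the vector tumors, after quantile scaling (0.54 and 0.56), under both normexp settings and with the adjusted t-test, and that in K278R tumors also with only the compared arrays or without K278R tumor 1 or tumor 3. In RASSF1A tumors the change was -0.44 (adjusted p = 0.366), and without RASSF1A tumor 3 it was -0.63 and was called (adjusted p = 0.0424). The other probe, A_33_P3333146, gave a different picture: it read -3.03, -2.74 and -1.91 in MOAP-1 tumors against -2.31, -2.54 and -2.55 in vector tumors, a change of -0.09 (SE 0.24, adjusted p = 0.793), and was called in none of the 7 comparisons. Platelet markers were measured at 4 of 4 probes, with a log2 of their summed signal of 0.84 to 0.99 in vector, 0.38 to 0.53 in MOAP-1, 0.33 to 0.40 in K264R, 0.61 to 0.75 in K278R and 0.72 to 1.00 in RASSF1A tumors. PF4 was called lower in MOAP-1, K264R and K278R tumors and GP9 in MOAP-1 and K264R tumors, while PPBP was at 0.74 in MOAP-1 (limma adjusted p = 0.0713) and 0.60 in K278R tumors (adjusted p = 0.160). The part of platelets in the change of RAP1GAP2 was not tested.

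SIPA1, which acts on RAP1 and RAP2, and its relative SIPA1L1 were not called in any of the 7 comparisons, although both differed by the F test (adjusted p = 0.0197 and 0.00791). Of all tested probes, 32.4% had a larger F statistic than SIPA1 and 24.1% a larger one than SIPA1L1. SIPA1 read -0.59, -0.68 and -0.34 in vector tumors, -0.20, -0.24 and -0.45 in MOAP-1 tumors, -0.30, -0.14 and -0.32 in K264R tumors, -0.01, -0.44 and -0.21 in K278R tumors and -1.12, -1.01 and -0.51 in RASSF1A tumors. Vector and MOAP-1 tumors overlapped, and the lowest values were RASSF1A tumors 1 and 2. SIPA1L1 read 2.09, 2.05 and 1.98 in vector tumors, 1.77, 1.64 and 1.92 in MOAP-1, 1.58, 1.81 and 1.75 in K264R, 1.93, 1.82 and 1.94 in K278R and 2.16, 2.14 and 2.19 in RASSF1A tumors. All 9 tumors of the MOAP-1 constructs lay below the vector tumors and all 3 RASSF1A tumors above them. These are small changes: -0.26 in MOAP-1 (limma adjusted p = 0.0509), -0.33 in K264R (1.26-fold, adjusted p = 0.0164) and 0.13 in RASSF1A tumors (adjusted p = 0.601).

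**Figure D2:**
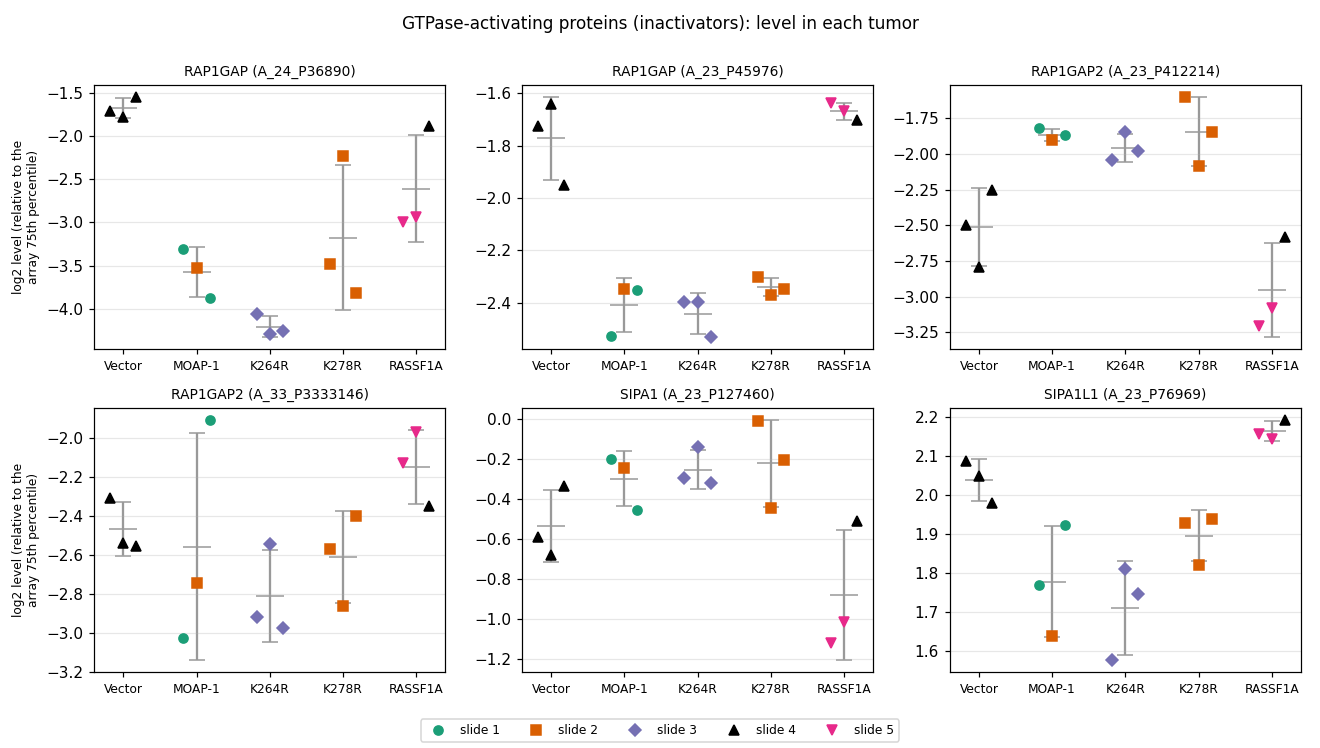
Log2 level, relative to the array's 75th percentile, of 6 probes of the GTPase-activating proteins in each of the 15 tumors, grouped by construct; shape and color give the slide, and the gray bar and whiskers the mean and SD of 3 tumors. RAP1GAP is lower at both probes in all MOAP-1, K264R and K278R tumors than in vector tumors, RAP1GAP2 lies higher in those tumors at A_23_P412214 and not at A_33_P3333146, and RASSF1A tumor 3 on slide 4 lies nearer the vector tumors than tumors 1 and 2 at A_24_P36890 of RAP1GAP, at A_23_P412214 and at SIPA1.

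The GTPases RAP1A and RAP1B, near-identical RAP1 proteins, were not called in any comparison. RAP1A read 1.35, 1.59 and 1.46 in vector tumors, 1.45, 1.66 and 1.40 in MOAP-1, 1.65, 1.37 and 1.55 in K264R, 1.30, 1.59 and 1.41 in K278R and 1.67, 1.54 and 1.37 in RASSF1A tumors, and every pair of groups overlapped. Its F statistic was among the smallest of the array, with 99.3% of tested probes above it (limma adjusted p = 0.931), and its change in MOAP-1 tumors was 0.04 with a 95% interval from -0.22 to 0.30. RAP1B, at probe A_23_P2661, read 2.15, 2.44 and 2.20 in vector tumors, 2.04, 2.57 and 2.35 in MOAP-1, 2.30, 2.14 and 2.40 in K264R, 2.11, 2.92 and 2.34 in K278R and 2.48, 2.57 and 2.23 in RASSF1A tumors. The highest value was K278R tumor 2, which was also the highest at the other RAP1B probe (2.67, with the remaining 13 values from 1.72 to 2.48). The change of RAP1B in MOAP-1 tumors was 0.06 (95% interval -0.36 to 0.47) and 0.14 (-0.33 to 0.60) at its 2 probes, and no interval for RAP1A or RAP1B against vector went beyond 0.75 in either direction.

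RAP2A, a close RAP relative with its own effectors, was the 1 GTPase of the set with a called change. It read -2.88, -2.69 and -2.81 in vector tumors, -2.01, -1.93 and -2.30 in MOAP-1 tumors and -0.58, -1.98 and -0.80 in K264R tumors. In K278R tumors it read -3.32, -2.52 and -0.96, the widest spread of any member within a construct (SD 1.20), and in RASSF1A tumors -2.24, -2.43 and -2.58. All MOAP-1, K264R and RASSF1A tumors lay above the 3 vector tumors, and K278R tumors lay on both sides. By limma's F test RAP2A did not differ among the constructs (adjusted p = 0.0689), and 48.1% of tested probes had a larger statistic. The change was 1.68 (SE 0.46, 3.20-fold higher, limma adjusted p = 0.0136) in K264R tumors, with 0.465% of tested probes rising at least as far. The call was lost without K264R tumor 1, without K264R tumor 3, with the adjusted t-test and under normexp on all spots. In MOAP-1 tumors it was 0.71 (SE 0.46, adjusted p = 0.260) with a 95% interval from -0.29 to 1.72. MOAP-1 minus K264R was -0.96, with a 95% interval from -1.97 to 0.04 (adjusted p = 0.469).

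Among the activators, RAPGEF1 differed at 1 of 2 probes. A_23_P304237 read -2.01, -2.24 and -1.91 in vector tumors and -2.46, -2.19 and -2.02 in RASSF1A tumors. It read -1.60, -1.55 and -1.57 in MOAP-1, -1.64, -1.57 and -1.64 in K264R and -1.50, -1.52 and -1.43 in K278R tumors, all 9 above the other 6. A larger F statistic than that of this probe was found at 8.66% of tested probes. Against vector the changes of 0.48 (1.39-fold, limma adjusted p = 0.00692), 0.44 (1.35-fold, adjusted p = 0.00947) and 0.57 (1.48-fold, adjusted p = 0.00576) passed the p threshold and not the fold threshold. Under normexp on all spots they were -0.23 in MOAP-1 (limma adjusted p = 0.526), 0.04 in K264R (adjusted p = 0.941) and -0.14 in K278R tumors (adjusted p = 0.713). Relative to the median of all tested probes, which that setting lowered, they were 0.30, 0.34 and 0.32. The other probe, A_23_P391764, read -1.38, -1.40 and -1.46 in vector, -1.33, -1.16 and -1.20 in MOAP-1, -1.16, -1.26 and -1.15 in K264R, -1.48, -0.91 and -1.25 in K278R and -1.08, -0.88 and -1.30 in RASSF1A tumors, and its changes against vector, 0.18 to 0.33, had adjusted p from 0.227 to 0.381.

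RAPGEF2, an exchange factor of cell-cell contacts, was not called at either probe in any comparison. A_23_P133095 read -0.72, -0.45 and -0.69 in vector, -0.50, -0.12 and -0.37 in MOAP-1, -0.29, -0.53 and -0.39 in K264R, -0.51, -0.43 and -0.48 in K278R and -0.39, -0.46 and -0.73 in RASSF1A tumors, with the groups overlapping the vector tumors. In MOAP-1 tumors its 2 probes differed in sign, 0.29 (limma adjusted p = 0.0958) at A_23_P133095 and -0.38 (adjusted p = 0.179) at A_33_P3334743, which lay between -4.45 and -3.26 in the 15 tumors. RAPGEF3, the exchange factor opened by cAMP, read 2.38, 2.08 and 2.03 in vector, 2.34, 2.23 and 2.52 in MOAP-1, 1.99, 2.36 and 2.20 in K264R, 2.45, 2.21 and 2.50 in K278R and 2.64, 2.45 and 2.32 in RASSF1A tumors at A_32_P393316, which was well above background on all 15 arrays, and did not differ by the F test (adjusted p = 0.242). Its untested probe A_23_P151307 lay between -9.13 and -6.82 and has only a bound in every construct. The 2 probes of RAPGEF3 carry identifiers of different transcripts of the gene, and the design of neither is given in the sources used here.

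**Figure D3:**
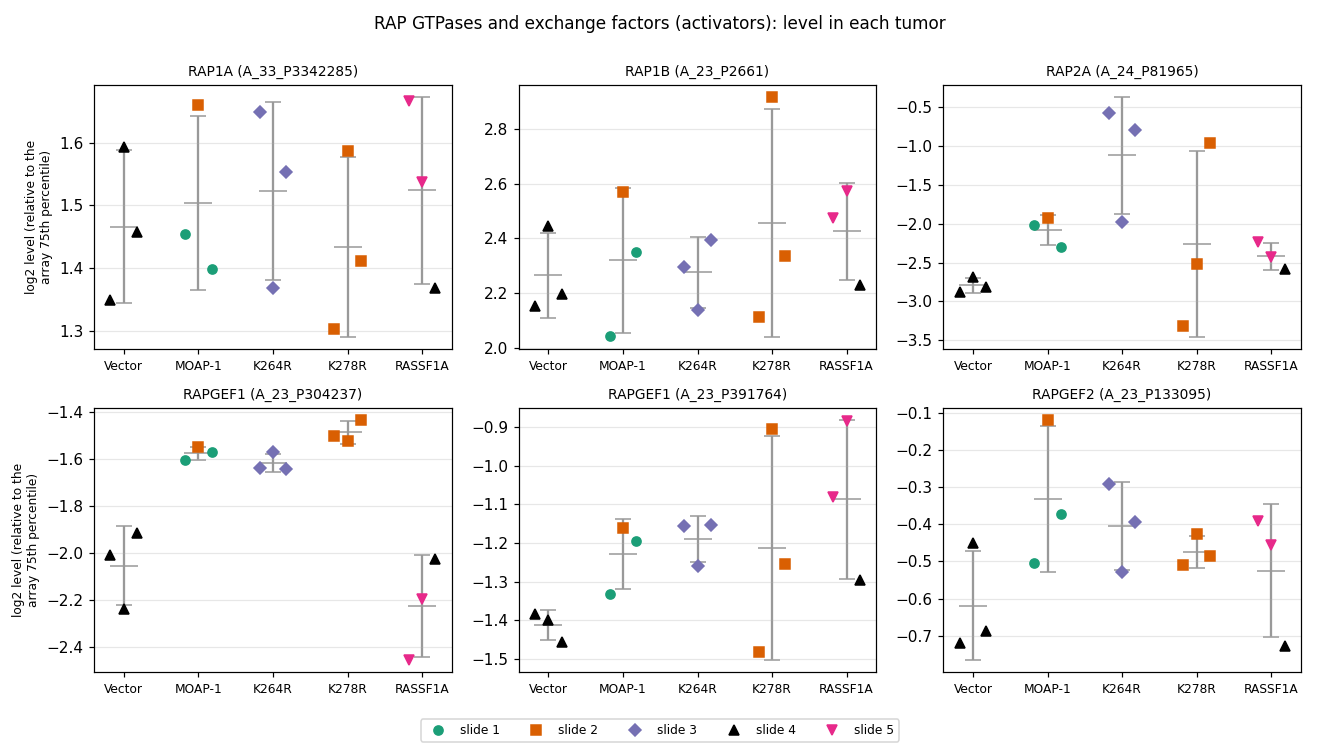
Log2 level, relative to the array's 75th percentile, of RAP1A, RAP1B, RAP2A, both RAPGEF1 probes and 1 RAPGEF2 probe in each of the 15 tumors; shape and color give the slide, and the gray bar and whiskers the mean and SD of 3 tumors. RAP1A and RAP1B overlap in all constructs, RAP2A spreads widely in K264R and K278R tumors, and RAPGEF1 separates 9 tumors from 6 at A_23_P304237 but not at A_23_P391764.

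The wild type and changed forms of MOAP-1 were then compared with each other. Limma called none of the 15 member probes in MOAP-1 against K264R tumors (background 0.00327%) or against K278R tumors (background 0%), and none had an unadjusted p under 0.05 in either comparison, beside 10.9% and 9.22% of all tested probes. The methods' unadjusted t-test called 1 member against K264R, where it called 1.03% of all tested probes, and none against K278R. The groups did not overlap at 1 of 15 member probes against K264R (background 19.4%) and at 1 against K278R (13.0%). The intervals leave room for differences. For RAP1GAP A_24_P36890, MOAP-1 minus K264R was 0.64 (95% interval -0.13 to 1.40) and MOAP-1 minus K278R -0.40 (-1.17 to 0.37). For RAP1GAP A_23_P45976 the same differences were 0.03 (-0.17 to 0.24) and -0.07 (-0.27 to 0.14). On slide 2, which held both constructs, MOAP-1 tumor 2 differed from the mean of the K278R tumors by -0.36 at A_24_P36890, by -0.0049 at A_23_P45976 and by -0.06 at RAP1GAP2 A_23_P412214.

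MOAP-1 and its binding partner RASSF1A gave different levels at 4 of the 15 member probes, beside 21.2% of all tested probes, and the groups did not overlap at 7 (51.2%). RAP1GAP was lower in MOAP-1 tumors at A_23_P45976 (-0.74, SE 0.10, limma adjusted p = 0.000102) and at A_24_P36890 (-0.97, SE 0.36, adjusted p = 0.0475), and all 3 MOAP-1 tumors lay below all 3 RASSF1A tumors at both. RAP1GAP2 at A_23_P412214 was 2.13-fold higher (1.09, SE 0.17, adjusted p = 0.000394), and RAPGEF1 at A_23_P304237 was 1.57-fold higher (0.65, SE 0.11, adjusted p = 0.000699). SIPA1 (0.58, adjusted p = 0.0129) and SIPA1L1 (-0.39, adjusted p = 0.00602) passed the p threshold and missed the fold threshold. The call for A_24_P36890 was lost under 18 of 28 alternatives, and the others were each kept under 23 or more. That of RAPGEF1 was lost after quantile scaling (0.51, short of the fold threshold), under both normexp settings and without RASSF1A tumor 1. With scan day as a block its change was 0.45, short of the fold threshold. Only RASSF1A tumors 1 and 2 were scanned on the other day, so that setting rests the RASSF1A level on tumor 3 alone.

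Other genes of the RAP pathway were read from a list of 26 genes with 40 probes, of which 38 were tested. In MOAP-1 tumors 8 of 38 were called, beside 16.6% of all tested probes called in either direction. All 8 were higher, beside 9.91% of all tested probes called higher. In K264R tumors 9 were called (background 19.5%), of which 7 were higher (9.25%) and 2 lower (10.2%). In K278R tumors 3 were called (10.9%), all of them higher (7.71%). In RASSF1A tumors limma called none, with 4 of 38 at an unadjusted p under 0.05 (12.1% of all tested probes), and called 2 without RASSF1A tumor 3. The largest changes in MOAP-1 tumors were of TLN1, the talin that links RAP1 signaling to integrins, which read -1.75, -0.99 and -1.52 against -2.53, -3.11 and -2.91 in vector tumors (1.43, SE 0.28, limma adjusted p = 0.00226), and of the GTPase RAP2C. RAP2C at A_23_P147826 read -3.43, -3.16 and -3.61 in MOAP-1 and -4.64, -4.65 and -4.91 in vector tumors (1.33, adjusted p = 0.00137). The groups did not overlap, as at 48.6% of all tested probes. RAP2C was higher by 1.06 at its other probe, A_24_P374319 (adjusted p = 0.0168). CRK, an adapter that brings RAPGEF1 to tyrosine-phosphorylated proteins, was higher by 1.13 (SE 0.28, adjusted p = 0.00878). RAP1GDS1, a chaperone-like partner of small GTPases, was higher by 1.08 (adjusted p = 0.00416), and the exchange factor RAPGEF6 by 1.03 (SE 0.12, adjusted p = 0.000195). Both have other probes that were not called in MOAP-1 tumors: for RAP1GDS1 the change was 0.07 at A_32_P85813 (adjusted p = 0.748), and for RAPGEF6 0.79 at A_33_P3243519 (adjusted p = 0.0548) and 0.43 at A_33_P3243524 (adjusted p = 0.0788), the last with 1 vector tumor missing.

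RAP2C at A_24_P374319 read -0.32, -1.19 and -0.46 in K264R tumors and -1.96, -1.74 and -0.62 in K278R tumors. For RAP2C and RAP2A alike, K264R tumor 2 was thus the lowest of its construct and K278R tumor 3 the highest of its own. At A_23_P147826 the K278R tumors read -4.25, -4.25 and -3.25. K278R tumor 3 was also the highest of its construct for RAP1GDS1 at A_33_P3215123 (-1.52) and for CRK (-1.26). Whether RAP2C and RAP2A vary together was not tested. RAP2C was higher in K264R tumors by 1.52 (SE 0.30, limma adjusted p = 0.00182) at A_24_P374319 and by 1.43 (adjusted p = 0.000635) at A_23_P147826. K264R tumors also had higher RAP1GDS1 at A_33_P3215123 (1.17, adjusted p = 0.00207), with 0.25 at A_32_P85813 (adjusted p = 0.211, not called). CRK (1.03, adjusted p = 0.0115), TLN1 (0.99, adjusted p = 0.0147) and RAPGEF6 at A_23_P144999 (0.87, adjusted p = 0.000237) were higher as well, and the other RAPGEF6 probes were at 0.07 (adjusted p = 0.877) and 0.52 (adjusted p = 0.0330) and were not called. The probes that fell in K264R tumors were 2 of the 4 of AFDN (afadin), a junctional effector of RAP1, by 0.81 (SE 0.17, adjusted p = 0.00317) at A_33_P3233105 and by 0.74 (adjusted p = 0.0108) at A_33_P3278410, and the other 2 AFDN probes were at -0.52 and -0.54 (adjusted p = 0.0233 and 0.000597), short of the fold threshold. In K278R tumors TLN1 (1.49, adjusted p = 0.00445), RAP2C at A_23_P147826 (0.82, adjusted p = 0.0298) and RAPGEFL1 (0.69, adjusted p = 0.0479) were higher, and RAP2C at A_24_P374319 was at 0.74 (adjusted p = 0.0922) and was not called.

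**Figure D4:**
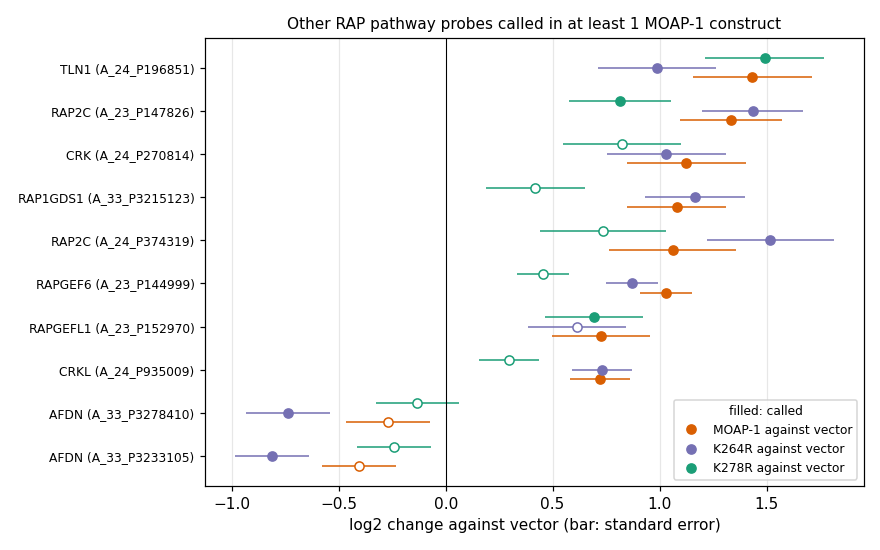
Log2 change against vector tumors, with its SE, of the other RAP pathway probes called in at least 1 of MOAP-1, K264R and K278R tumors (3 tumors a construct); filled points were called. TLN1, RAP2C, CRK, RAP1GDS1, RAPGEF6, RAPGEFL1 and CRKL lie right of 0 in all 3 constructs, and the 2 AFDN probes shown lie left of 0 and were called in K264R tumors.

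The genes whose profile over the 15 arrays was most like RAP1GAP at A_23_P45976, of 23093 named probes compared by Pearson's r, were DCAKD (0.995), TOR2A (0.993), MMP28 (0.993), CDH22 (0.992) and ELFN1 (0.992). After the mean of each construct was subtracted the values were 0.939, 0.920, 0.907, 0.905 and 0.903. These are descriptions over arrays that share slides and constructs, and none of the 5 is a member of the set.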

How the data were processed

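Total RNA of 15 tumors was labeled with Cy3 and hybridized to single-color Agilent arrays. The authors deposited, per array, the output of Agilent Feature Extraction (version 9.1 in the submitters' processing notes, 10.5.1.1 in the file headers), with a background-corrected intensity per spot, not scaled between arrays, and the uncorrected spot and background intensity. A deposited table holds log2 values that were scaled and centered in GeneSpring. In it 8 columns followed the array of the same label and 7 another array of the same construct, so it served only as an alternative.

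Control spots and outlier spots were left out, spots of a probe were averaged, and log2 processed signal minus each array's 75th percentile was used. Transcript accessions were matched to RefSeq gene names for 74.5% of probes. Probes passing the filter (1 construct or more with all 3 tumors well above background) entered a limma fit (limma 3.58.1, R 4.3.3) with construct as the only term over all 15 arrays (10 residual degrees of freedom) and Benjamini-Hochberg adjustment. The fit was tested on simulated data. The members, gene lists and tests were chosen with earlier results of these data known. Every member is named. A probe has its value in each tumor when it was called or is the brightest of its gene, and of the other pathway genes called in MOAP-1, K264R or K278R tumors at most the 5 genes with the largest changes are named per comparison, with AFDN added after its values were seen. Nothing says that the 3 tumors of a construct came from separate transfections, so p-values measure the spread between tumors, and 3 arrays a construct limit the precision. The alternatives were quantile scaling, normexp with an offset of 50 on all spots or without 16 spots of extreme local background, no filter, a filter on all arrays, the deposited table, array weights, scan day, slide or replicate number as a block, only the arrays compared, the methods' t-test (unpaired, at an unadjusted threshold and 1.5-fold, or after adjustment) and leaving out each tumor. Protein sequences of the members were not analysed here.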

Additional observations from a re-analysis of the deposited data

Results flagged for a closer look

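The effects of MOAP-1 and of RASSF1A, each against the same vector tumors, differed at 4 of the 15 tested member probes. This is by limma's direct contrast of MOAP-1 and RASSF1A tumors (3 tumors each), which called 21.2% of all tested probes, a share close to that of the members. RAP1GAP differed by -0.74 at A_23_P45976 (adjusted p = 0.000102) and by -0.97 at A_24_P36890 (adjusted p = 0.0475). The call at A_24_P36890 was lost under 18 of 28 alternatives. RAP1GAP2 differed by 1.09 at A_23_P412214 (adjusted p = 0.000394) and RAPGEF1 by 0.65 at A_23_P304237 (adjusted p = 0.000699). With scan day as a block the RAPGEF1 difference was 0.45, short of the fold threshold. That setting rests the RASSF1A level on tumor 3 alone, because only RASSF1A tumors 1 and 2 were scanned on the other day. At each of these 4 probes all 3 MOAP-1 tumors lay on 1 side of all 3 RASSF1A tumors, as at 51.2% of all tested probes. RASSF1A tumor 3, on the slide of the vector tumors, was the RASSF1A tumor nearest to MOAP-1 at RAP1GAP2 (-2.58) and at RAPGEF1 (-2.02), and the farthest from it at RAP1GAP A_24_P36890 (-1.89). MOAP-1 and RASSF1A tumors shared no slide.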

How the results depend on the processing

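The 12 called changes of members were recomputed under 13 alternatives and with each of the 15 tumors left out, which gave 336 values: 283 kept direction and call, 51 kept the direction and lost the call and 2 reversed. Both reversals were RAP1GAP2 A_23_P412214 under normexp on all spots, -0.15 in MOAP-1 (adjusted p = 0.730) and -0.14 in K278R tumors (adjusted p = 0.756). That setting moved the median of all probes to -0.53 and -0.46, and relative to it the probe was 0.38 and 0.32 higher. Under it no member was called in MOAP-1, K264R or K278R against vector (0 each), in MOAP-1 against RASSF1A (0) or by the F test (0), and no other pathway probe in MOAP-1, K264R or K278R tumors (0 each), while the calls over all probes in MOAP-1 tumors fell from 5075 to 522. Without the 16 spots of extreme local background, on 3 arrays, normexp called 1 member in MOAP-1 and 1 in K278R tumors and 4 and 1 other pathway probes, and 2631 probes in all in MOAP-1 tumors. The share of higher calls moved as well: in K278R tumors 2357 were higher and 978 lower, and 1450 and 1205 after quantile scaling, and in K264R tumors 2827 and 3119, and 1278 and 6606 under that second normexp setting. K278R tumors gave the least stable counts: no member (0) when only the compared arrays were fitted (3.83% of all probes) or under the adjusted t-test (0 of all probes), and other pathway probes 1 after quantile scaling, 1 with only the compared arrays, 0 and 1 under the adjusted and unadjusted t-test and 5 with slide as a random block (correlation -0.08). Of MOAP-1 against K264R, array weights called 2 members (5.89% of all probes) and the unadjusted t-test 1 (1.03%). With scan day as a block the RASSF1A level rested on tumor 3 alone, so its counts of calls in RASSF1A against vector tumors are not given.

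With 1 tumor left out, members called ranged from 1 (without vector tumor 2) to 4 in MOAP-1, 2 to 5 in K264R, 0 (without K278R tumor 3) to 4 in K278R, 0 to 2 (without RASSF1A tumor 3) in RASSF1A, 3 to 5 in MOAP-1 against RASSF1A, 0 to 0 against K264R and K278R, and 5 to 7 by the F test. Other pathway probes ranged from 7 to 9 in MOAP-1, 7 to 10 in K264R, 1 to 6 (without K278R tumor 2) in K278R and 0 to 2 in RASSF1A tumors. Where a construct was down to 2 tumors, its spread was shared with the others. Tumor numbers were not taken to pair the tumors, since the methods' t-test is unpaired. The deviations of same-numbered tumors correlated from -0.25 to 0.37 over 30 pairs, with a median of 0.11 against -0.04 for other pairs. Of the 30, 15 were over 0.1, among them 9 of the 10 pairs of number 2. Whether the numbers pair the tumors was not tested. With the replicate block, 3 members were called in MOAP-1 tumors and 3 in MOAP-1 against RASSF1A, and the number of arrays whose best match had its own number was 4 of 15. The causes of these differences were not tested.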
